A study of Mus musculus with 4 samples.

Results

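The ribosomal protein genes are the genes that encode the structural proteins of the cytoplasmic ribosome. They were taken as every gene of the count matrix whose symbol is Rpl or Rps followed by a number and at most 1 of the letters a, x, l or y, together with Rplp0, Rplp1, Rplp2 and Rpsa. This gave 80 of the 32285 genes, 49 of them named for the large subunit and 31 for the small subunit. At least 1 transcript was counted for 79, and 77 had at least 500 unique molecular identifiers (UMIs, 1 per captured transcript) in all and 3 in each library. The other 3 were Rpl3l with 19 UMIs, Rpl39l with 7 and Rpl10l with 0, and the lowest of the 77 was Rps27l with 4138. Together the members held 2348452 UMIs.

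Each ribosome carries a copy of nearly every one of these proteins, which bind the ribosomal RNAs of the small and the large subunit, and unassembled copies are degraded. Their mRNAs begin with a run of pyrimidines, the terminal oligopyrimidine (TOP) motif, through which the nutrient-sensing kinase mTOR controls their translation as a group. They are short, stable and abundant in nearly every cell, neurons of the brain included, where some are also carried into axons and dendrites.

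The counts come from Visium spatial transcriptomics, in which barcoded spots under a tissue section capture polyadenylated RNA from patches that can hold several cells. The mutant group was olfactory bulb of 1 mouse in which VEGF was blocked at E13.5 of gestation, on 2 capture areas with 2 serial sections each. The control group was olfactory bulb of 1 mouse on 2 capture areas, with 2 sections on 1 and 1 on the other. The labels give both groups the same protocol text: a transgenic soluble VEGFR1 that binds VEGF, under the tetracycline-regulated Camk2a-tTA driver of the brain, and an age of 5 months. They do not say which alleles the control mouse carried, and the series' text puts the degeneration of the bulb at 28%. Sections were coronal, 10 µm thick and fresh frozen.

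The spots carry library numbers 1 to 4, which match no label, so the libraries are reported by number with no condition and the mutant was not compared with the control. The libraries are not replicates, no p-value is given, and all intervals are 95% intervals for counting error only. The libraries held 715 to 1662 spots of at least 500 UMIs and 5223890 to 13304973 UMIs. The same spot barcodes, which mark positions on the slide, occurred in pairs of libraries 62 to 651 times. Mitochondrial transcripts made up 8.93%, 9.55%, 7.34% and 7.46% of the UMIs in libraries 1 to 4. Bulb markers were counted in every library, with the 4 mitral and tufted cell markers summing to between 2033 and 2346 UMIs per 1000000 UMIs (CPM), and the 4 granule cell markers to between 1809 and 2876 CPM. Markers of neighbouring tissue were present as well: the 4 nasal mucosa and gland markers summed to 591, 26.4, 166 and 335 CPM. The libraries differed in tissue makeup. The 4 forebrain excitatory neuron markers summed to 248, 307, 1549 and 1617 CPM in libraries 1 to 4. The 4 leptomeninges markers summed to 3208, 4473, 8183 and 5984 CPM, and the 4 periglomerular neuron markers to 1803, 1598, 658 and 682 CPM.

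Start-site sequences are shown because the members are known for a shared promoter type and a pyrimidine-rich start. RefSeq promoter windows on GRCm38.p6 were found for 60 of the 80 members, 72 windows in all. Motifs were searched over the whole of each window. Only the stretch from 60 bases before to 20 bases after the annotated start is printed below. A counted match can therefore lie outside that stretch and away from the start. The core CCGGAAG of ETS-family factors, searched on both strands, was in 26 of them (36.1%), against 8.86% of 32851 windows of all genes. The pyrimidine run CTTTCC, a TOP-type sequence searched on the transcribed strand, was in 28 (38.9%, against 14.1%). The YY1 core AAGATGGC, searched on both strands, was in 7 (9.72%, against 2.75%). No member window held overlapping matches of CCGGAAG and CTTTCC. A match is a description of the letters, not a site of binding. The first 4 printed stretches hold 1 of these motifs each, in capitals (in Rps15a as the reverse complement of the YY1 core). Those of Rpl10 and Rplp0 hold none. The same stretch of Rpl7a, the narrowest member between libraries, also holds none and is not printed. Rps15a, which holds a motif, was among the 6 widest members between libraries, as were Rpl10 and Rplp0. All printed stretches follow. They are Rps15a at chr7:118116128-118116207 on the minus strand, Rps27 at chr3:90213629-90213708 on the minus strand, Rpl31 at chr1:39367791-39367870 on the plus strand, Rpl28 at chr7:4792905-4792984 on the plus strand, Rpl10 at chrX:74270756-74270835 on the plus strand and Rplp0 at chr5:115559407-115559486 on the plus strand, each written 5′ to 3′ along the transcribed strand.
Rps15a: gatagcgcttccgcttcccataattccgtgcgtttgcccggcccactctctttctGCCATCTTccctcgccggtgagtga
Rps27: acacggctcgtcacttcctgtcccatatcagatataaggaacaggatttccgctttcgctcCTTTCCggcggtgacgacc
Rpl31: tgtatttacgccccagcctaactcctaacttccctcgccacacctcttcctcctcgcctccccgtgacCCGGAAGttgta
Rpl28: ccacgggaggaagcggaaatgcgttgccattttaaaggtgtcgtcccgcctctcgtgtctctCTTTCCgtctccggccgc
Rpl10: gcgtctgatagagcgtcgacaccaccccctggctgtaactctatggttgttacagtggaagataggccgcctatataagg
Rplp0: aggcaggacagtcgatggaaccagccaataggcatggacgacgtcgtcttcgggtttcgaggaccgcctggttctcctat

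The members took a larger share of the UMIs in libraries 3 and 4 than in libraries 1 and 2. The share was 5.37%, 5.21%, 6.21% and 6.12% in libraries 1 to 4, and library 3 lay 1.19-fold above library 2 (1.187 to 1.197). Both subunits had this order, the large at 3.29%, 3.20%, 3.77% and 3.72% and the small at 2.08%, 2.01%, 2.44% and 2.40%. The ratio of highest to lowest library was 1.18 (1.17 to 1.18) for the large and 1.22 (1.21 to 1.23) for the small subunit. The large subunit thus had 1.58, 1.60, 1.54 and 1.55 UMIs for each UMI of the small one. The mitochondrial share ran the other way between the libraries. Counted over UMIs of nuclear genes alone, the member share was 5.90%, 5.76%, 6.70% and 6.61%, a ratio of 1.16.

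**Figure D1:**
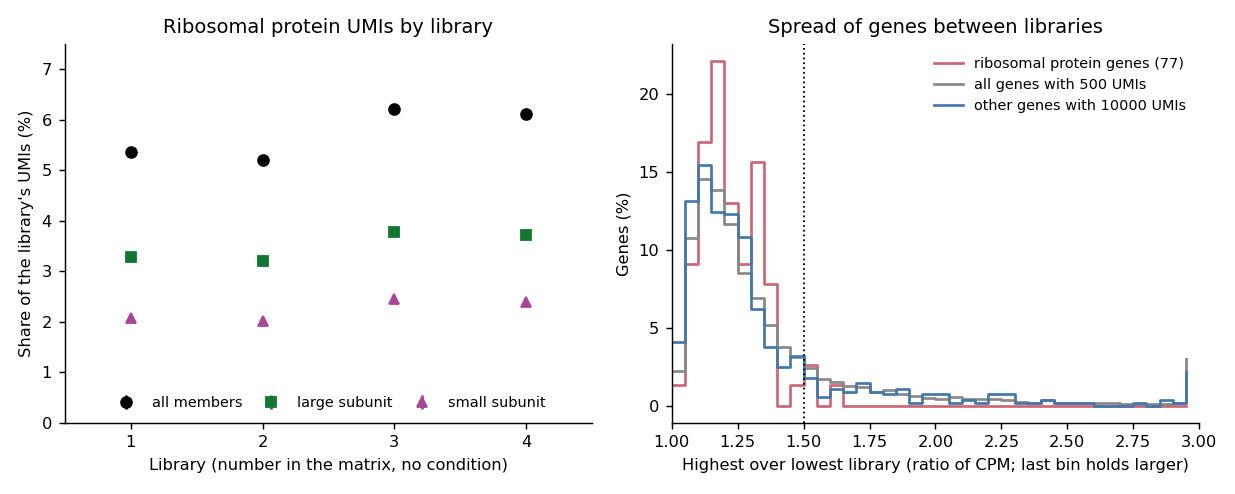
The left panel plots the share of each library's UMIs (%) taken by all members, by the large subunit and by the small subunit, with the intervals smaller than the symbols. The right panel plots the share of genes (%) by their ratio of highest to lowest library, in which 3 of 77 ribosomal protein genes, against 19.6% of all genes with 500 UMIs, lie to the right of the dotted line at 1.5.

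Member by member the libraries differed little in size, and nearly all members had their lowest level in library 1 or 2 and their highest in library 3 or 4. The median ratio of highest to lowest library was 1.202 over the 77 members, with a range of 1.05 to 1.62, and 1.24 over all 9852 genes of the same minimum. Only 3 members passed 1.5-fold, or 3.90%, against 19.6% of all genes and 14.6% of the 639 genes with at least 10000 UMIs. Library 2 was the lowest for 67 members, while 23.6% of all genes were lowest there. Library 3 was the highest for 49 (23.4% of all genes) and library 4 for 27 (24% of all genes). Set library against library, library 3 exceeded library 1 for 75 of 77 members (51.7% of all genes), with a median log2 ratio of 0.21, where all genes had a median of 0.01 and the 563 non-members with at least 10000 UMIs one of -0.12. Between libraries 4 and 3, 28 members were higher in library 4 (48.5% of all genes), with a median log2 ratio of -0.04. The members share a denominator and a tissue section in each library, so that they do not count as separate measurements of a library.

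**Figure D2:**
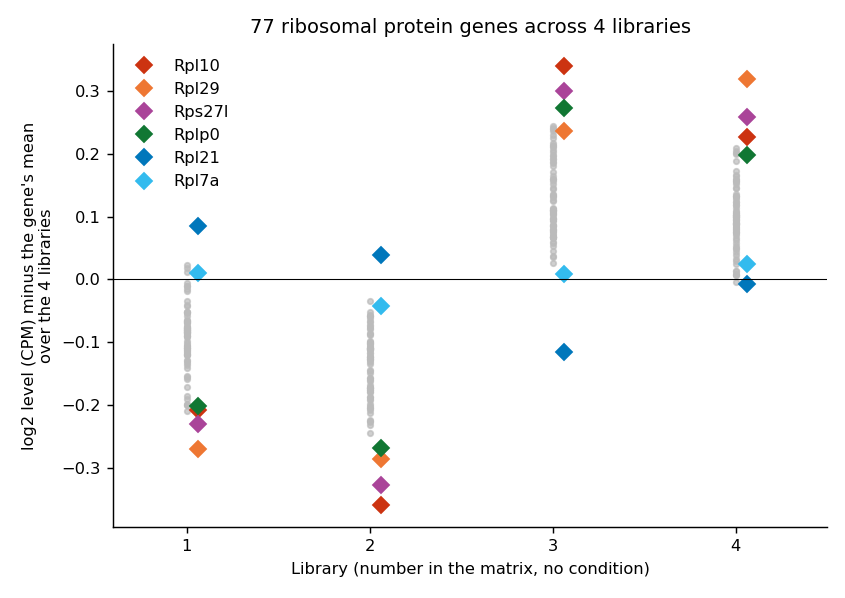
Each point is 1 of the 77 members, plotted as its log2 level in a library minus its mean over the 4 libraries, with 6 members coloured. Most members lie below 0 in libraries 1 and 2 and above 0 in libraries 3 and 4, Rpl21 lies the other way round, and Rpl7a stays near 0.

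The widest member was Rpl10, a late-joining large subunit protein needed for the subunits to combine (ENSMUSG00000008682, X chromosome). Libraries 1 to 4 had 251, 226, 367 and 339 CPM of it, with a ratio of 1.62 (1.52 to 1.73). Rps27l, the lesser-counted paralog of the zinc-finger protein gene Rps27, stood at 83.3, 77.9, 120.3 and 117 CPM, a ratio of 1.54 (1.38 to 1.73). For Rpl29, which encodes a small basic protein of the large subunit, the levels were 422, 418, 601 and 636 CPM, a ratio of 1.52 (1.45 to 1.60). In all 3 the values of libraries 1 and 2 lay below those of libraries 3 and 4. Rpl29 alone was past 1.5-fold without library 2, while Rpl10 and Rps27l alone were past it without library 4 and also over UMIs of nuclear genes.

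Next came Rplp0, the anchor of the ribosomal stalk that recruits elongation factors, at 291, 278, 405 and 385 CPM, a ratio of 1.46 (1.37 to 1.54). Rpl5, a carrier of the small RNA of the large subunit and a regulator of p53, stood at 346, 322, 448 and 425 CPM, a ratio of 1.39 (1.32 to 1.47). Rps15a, a small subunit protein, had 607, 578, 801 and 749 CPM, also a ratio of 1.39 (1.33 to 1.44). The stalk proteins that dimerize on Rplp0 varied less than it did. Rplp1 was measured at 1564, 1482, 1932 and 1829.6 CPM, a ratio of 1.304 (1.27 to 1.34), and Rplp2 at 575, 554, 625 and 635 CPM, a ratio of 1.15 (1.10 to 1.198). Rpsa, a small subunit protein also known as the laminin receptor, stood at 609.7, 613, 679.6 and 682 CPM, a ratio of 1.12 (1.08 to 1.15). The 4 members on the X chromosome, Rpl10, Rpl36a, Rpl39 and Rps4x, had ratios of 1.32 to 1.62, all above the member median. Members on other chromosomes, such as Rpl29, also lay above it. Other genes of the X chromosome were not compared, so no trait of the chromosome can be read from these 4.

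At the other end, Rpl7a, a large subunit protein that binds ribosomal RNA, was measured at 376, 362, 375 and 379.6 CPM. Its ratio of 1.05 had an interval of 0.991 to 1.11, the only interval of the 77 that reached 1, where 71.5% of all genes and 96.3% of the 563 non-members with at least 10000 UMIs had an interval above 1. The ratios of the other 5 narrowest members were 1.05 for Rpl36, 1.08 for Rpl31 and 1.09 for Rpl28, Rps13 and Rpl24, the last a protein at the bridge between the subunits. Rpl21 went against the rest, at 1441, 1395, 1253 and 1351 CPM with library 1 highest and library 3 lowest, a ratio of 1.15 (1.13 to 1.18). Rpl21 and other members have many near-identical processed copies in the mouse genome, and these levels are uncertain, with the authors' handling of reads shared by such copies not given in the sources used here.

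The 6 members with the most UMIs were Rpl41, Rps29, Rpl38, Rps21, Rplp1 and Rpl37, of which Rplp1 is given above. Rpl41, the smallest protein of the ribosome, stood at 1974, 1924, 2252 and 2244.5 CPM. Rps29, a zinc-binding protein of the small subunit, stood at 1769, 1615, 1844 and 1763 CPM. Rpl38, known in mouse for its part in the translation of Hox mRNAs, had 1656, 1600.2, 1861 and 1881 CPM. All of these had ratios between 1.14 for Rps29 and 1.304 for Rplp1, with Rps21 at 1.19 and Rpl37 at 1.22. Counts here come from transcript ends and are not divided by length, so levels are compared between libraries and not between genes.

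Relative to the summed UMIs of the members, which takes out what they share, the ratio of highest to lowest library had a median of 1.09, and 5 of 77 members lay above 1.2, against 76.2% of all genes on the same scale. These were Rpl10 at 1.36, Rpl21 at 1.33, Rpl29 at 1.32, Rps27l at 1.296 and Rplp0 at 1.22. The members were also set against their paralogs. For each UMI of Rpl22, those of Rpl22l1 numbered 1.10, 1.07, 0.799 and 0.780 in libraries 1 to 4. Rpl22 itself stood at 340, 338, 442 and 447 CPM, a ratio of highest to lowest library of 1.32. Among the 10 ribosome genes outside the symbol rule, which include Rpl22l1, that ratio was at most 1.24. The counting intervals of libraries 1 and 2, which begin at 1.06 and 1.004, did not overlap those of libraries 3 and 4, which end at 0.831 and 0.816. For Rpl36al against Rpl36a the numbers were 1.07, 1.02, 0.794 and 0.842. Its intervals did not overlap either, beginning at 1.02 and 0.951 and ending at 0.829 and 0.884. Counting intervals are narrow at such counts. Of the 563 non-members with at least 10000 UMIs, 96.3% had an interval of the library ratio above 1. Pairs of genes other than paralogs were not compared. Rps27l stood at 0.112, 0.106, 0.123 and 0.132 of Rps27. Rpl7l1 stood at 0.119, 0.111, 0.102 and 0.112 of Rpl7, and its intervals overlapped between all 4 libraries. Rpl22l1, Rpl36al and Rpl7l1 fall outside the symbol rule and belong to the list of other ribosome genes. The 3 paralogs known mainly from other tissues were close to absent: Rpl3l, the muscle form of Rpl3, had 0.752, 0.766, 0.0798 and 0.420 CPM, Rpl39l, a testis form of Rpl39, had 0.0752, 0.383, 0.0798 and 0.315 CPM, and Rpl10l, a testis form of Rpl10, had 0 UMIs, where a count of 3 would stand for 0.225 to 0.574 CPM.

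Among other genes of translation, few were past 1.5-fold, where 19.6% of all genes were, and the lists did not follow 1 order of libraries. Of the 10 ribosome genes outside the rule, 0 passed, with Fau, a fusion gene that yields a small subunit protein, at 1305, 1254, 1391 and 1455 CPM and Rps3a1 at 604, 606, 713 and 733 CPM. Of 8 elongation genes, 0 passed. The factor that delivers tRNAs, Eef1a1, stood at 1585, 1524, 1937 and 1856 CPM, the growth-related Tpt1 at 979.6, 904, 1146 and 1057 CPM, and the translocase Eef2, named after its values were seen, higher in libraries 1 and 2, at 769, 735, 676 and 667 CPM.

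Of 22 initiation genes, 1 passed, against 19.6% of all genes, namely Eif3e at 46.8, 41.9, 63.6 and 59.996 CPM. The 2 with the most UMIs, Eif1 and Eif4a2, had ratios of 1.04 and 1.15. Of 19 genes of ribosome biogenesis past the minimum, 0 passed, with ratios of 1.09 for Rrp1 and 1.11 for Nop10. Of 23 other TOP mRNAs 2 passed, Eif3e and Vim, an intermediate filament gene of glia and mesenchyme at 62.8, 71.6, 478 and 373 CPM. Eef1a1 was the most counted of these and Cox4i1, a subunit of a respiratory enzyme, the next, at 1724, 1582, 1413 and 1467 CPM. Of the 78 mitochondrial ribosome genes 1 passed, Mrpl10 at 49.1, 45.6, 91.8 and 95.2 CPM. In contrast to the cytoplasmic members, 45 of the 78 were highest in library 1 (22.1% of all genes), and their sum was 0.632%, 0.601%, 0.582% and 0.603% of the UMIs. The most counted of them, Mrps21 and Mrps33, had ratios of 1.15 each. Eif3e, Vim and Mrpl10 were named after their values were seen.

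Across spots within a library, all thinned to 2000 UMIs, members varied well beyond counting error. The median spot held 108, 104, 122 and 123 member UMIs in libraries 1 to 4, over 1429, 626, 1254 and 923 spots. The 5th percentiles were 76, 70, 84 and 81 and the 95th percentiles 162.6, 147, 181 and 187.9 UMIs. Thinning left out 233, 89, 42 and 20 shallower spots. Without thinning the median shares of these spots were 5.40%, 5.27%, 6.14% and 6.14%. The variance was 6.64, 4.95, 7.75 and 8.78 times that of binomial counting, which leaves a coefficient of variation of 21.9%, 18.8%, 22.4% and 24.1% beyond counting. Spots are not replicates, and a spot with fewer cells of a type cannot be told apart from one with less RNA per cell.

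**Figure D3:**
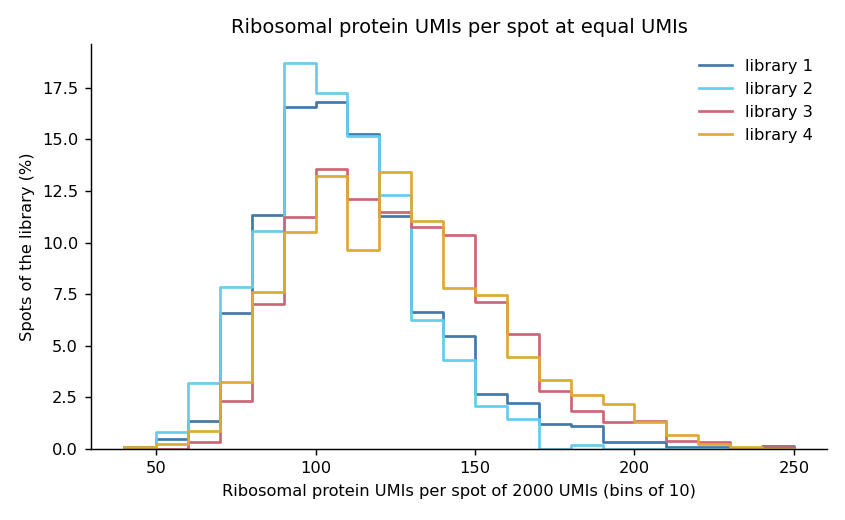
The lines give the share of a library's spots (%) by the number of ribosomal protein UMIs in a spot thinned to 2000 UMIs, in bins of 10. The curves of libraries 3 and 4 are broader and reach further to the right, with 95th percentiles of 181 and 187.9 UMIs, than those of libraries 1 and 2, with 162.6 and 147.

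The subunits varied together. Spearman's rho between large and small subunit UMIs over spots was 0.66, 0.62, 0.72 and 0.77 in libraries 1 to 4, where both share the spot and its total. The member sum also went with the mitochondrial sum, with rho of 0.62, 0.59, 0.39 and 0.54, and weakly against the depth of the spot before thinning, with rho of -0.23, -0.03, -0.12 and -0.18. The part of mitochondrial content and depth in the member sum was not tested. Of the marker lists, olfactory ensheathing glia had rho of 0.52, 0.47, 0.56 and 0.52 with the members, leptomeninges 0.50, 0.55, 0.50 and 0.46 and granule cells -0.41, -0.38, -0.35 and -0.36. Phagocyte markers had 0.14, 0.12, 0.53 and 0.48, and their sum was 152, 141, 909 and 777 CPM in the 4 libraries. Other TOP mRNAs had rho of 0.27, 0.25, 0.52 and 0.48, while mitochondrial ribosome genes had -0.22, -0.16, -0.16 and -0.20.

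Single members were near counting error in most cases. The median over members of the variance relative to binomial counting was 1.08, 1.07, 1.10 and 1.11 in libraries 1 to 4. Rps29 was widest in every library, at 2.60, 2.02, 1.89 and 2.003, with rho of 0.56, 0.49, 0.48 and 0.53 to the sum of the other members. After it by the median over libraries came Rpl41 at 1.47, Rps27 at 1.40, Rplp1 at 1.39, Rpl37a at 1.35 and Rpl39 at 1.34. Rpl21 and Rpl4 followed the other members least, with median rho of 0.006 and 0.02 over the libraries. Across members the variance ratio had a rho of 0.69 with UMIs.

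Clustering of the spots without ribosomal protein, mitochondrial, globin or list genes gave 15 clusters, of which 13 had at least 30 spots in a library. Each of these 13 regions, named by its leading gene and not as a cell type, had that many spots in exactly 2 libraries, either 1 and 2 or 3 and 4. Variance between regions made up 41.9%, 28.8%, 49.3% and 45.2% of the variance of the member sum over thinned spots in libraries 1 to 4. In library 3 the member share was highest in the Ces1a region, 8.67%, against 6.15% in the rest of that library, and in library 4 this region held 7.72%, against 6.07%. The Mmp12 region, highest in library 4, held 8.22% and 8.08% in libraries 3 and 4, against 5.95% and 5.91% in the rest. In libraries 1 and 2 the Bpifb9b region was highest, at 7.11% and 6.73%, against 5.20% and 5.09% in the rest. The lowest shares were those of the Klhl30 region in libraries 1 and 2, 4.40% and 4.44%, against 5.55% and 5.35%, the Cacna1h region in the same libraries, 4.69% and 4.63%, against 5.43% and 5.29%, and the Trbc2 region in libraries 3 and 4, 4.90% and 4.96%, against 6.63% and 6.52%. On the log2 scale, relative to the remaining spots of the library, these shares ran between -0.44 in the Trbc2 region of library 3 and 0.50 in the Ces1a region of library 3. Both libraries of a region gave nearly the same share, with ratios of 1.01 to 1.12.

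**Figure D4:**
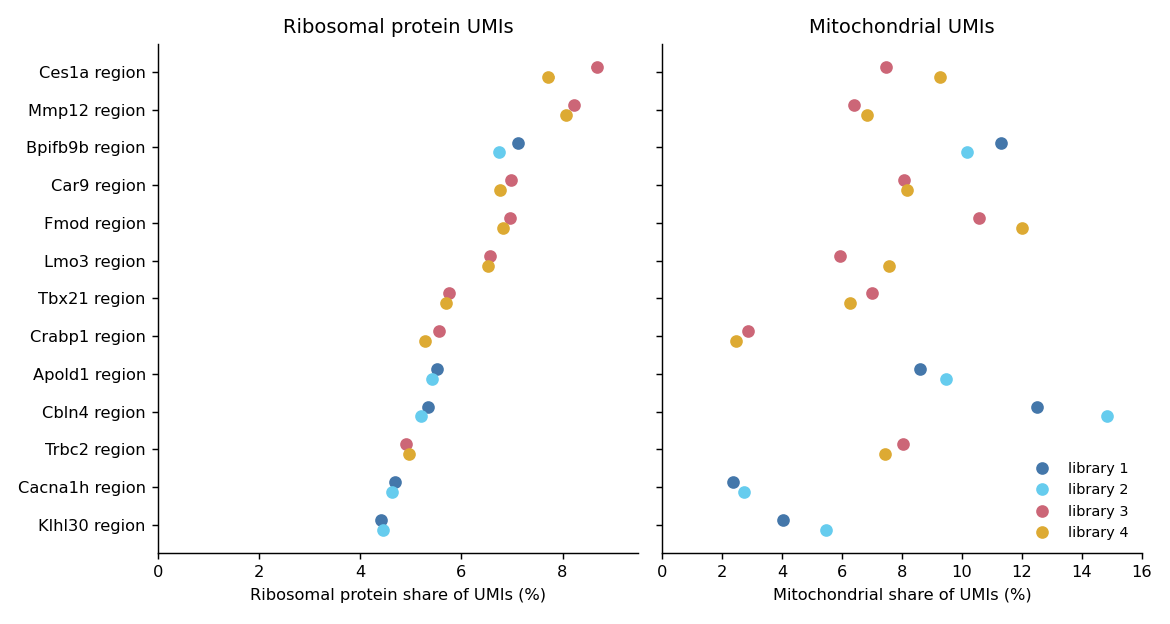
The left panel plots the share of UMIs (%) taken by ribosomal protein genes and the right panel that of mitochondrial genes, for 13 regions in the libraries with at least 30 of their spots. Regions are ordered by the ribosomal protein share, which runs between 4.40% and 8.67%, and the Cacna1h and Crabp1 regions have the lowest mitochondrial shares.

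Regions rich in members carried markers of several cell types. In the Mmp12 region the 5 phagocyte markers, all higher than in the rest, summed to 4294 and 4269 CPM in libraries 3 and 4, against 466 and 398 CPM in the rest, and the 5 ensheathing glia markers to 6863 and 8159 CPM, against 1633 and 1456 CPM. The Bpifb9b region had all 5 ensheathing glia markers at a sum of 8110 and 8627 CPM in libraries 1 and 2, against 1096 and 1167 CPM, and all 4 sensory axon markers at 8596 and 6615 CPM, against 679.7 and 628 CPM. The 4 leptomeninges markers reached 21869 and 33686 CPM there, against 1361 and 2086 CPM. In the Ces1a region, of 30 and 44 spots in libraries 3 and 4, the 4 nasal mucosa and gland markers summed to 5168 and 9874 CPM, against 48.5 and 58.6 CPM, and the 4 red blood cell markers to 18048 and 6538 CPM, against 1085 and 1152 CPM. None of these markers was at 0 in the regions named with them.

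Regions poor in members carried markers of several neuronal types, and some of them of oligodendrocytes. Oligodendrocyte markers were not particular to poor regions. Their sum was highest in the Lmo3 region, at 5106 and 4722 CPM in libraries 3 and 4, against 969 and 858 CPM. The member share of that region was above the rest, at 6.57% and 6.53%, against 6.20% and 6.07%. In the Trbc2 region all 4 forebrain excitatory neuron markers were higher than in the rest, with sums of 4459 and 4526 CPM in libraries 3 and 4, against 609 and 616 CPM. In the Klhl30 region all 4 mitral and tufted cell markers were higher, at 4273 and 3570 CPM in libraries 1 and 2, against 1997 and 1793 CPM, and all 4 granule cell markers, at 3711 and 3689 CPM, against 2489 and 2730 CPM. In the Cacna1h region of libraries 1 and 2 all 4 granule cell markers were higher, with sums of 5855 and 5525 CPM, against 2419 and 2508 CPM, and so were all 4 oligodendrocyte markers, at 2530.4 and 2577 CPM, against 840.3 and 782 CPM. Mitral and tufted cell markers summed to 679.9 and 585 CPM there, against 2481 and 2269 CPM, and periglomerular neuron markers to 642 and 509 CPM, against 1897 and 1749.9 CPM, with 0 of 4 higher in each list. In the Crabp1 region of libraries 3 and 4 all 4 oligodendrocyte markers were higher, at 3209 and 2586 CPM, against 793 and 1158 CPM, as were all 4 granule cell markers, at 4195 and 3847 CPM, against 1586 and 1634 CPM. The Cacna1h region was shallow, with a median of 1834.5 and 2460 UMIs per spot, and had few mitochondrial transcripts, 2.37% and 2.73% of UMIs, against 9.47% and 10.5% in the rest. The parts of depth, mitochondrial content and cell makeup in the member share were not tested. Over UMIs of nuclear genes the log2 ratio of the Cacna1h region was -0.32 and -0.31, where over all UMIs it was -0.21 and -0.19.

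In the regions of highest and lowest share most members lay on the same side of the rest, by amounts mostly under 1.5-fold. In the Mmp12 region 77 of 77 members exceeded the remaining spots in libraries 3 and 4, as did 36.6% and 38.3% of all genes. Past 1.5-fold higher were 19 and 18 members (24.7% and 23.4%, against 13.1% and 13.8% of all genes). The median log2 ratio of members was 0.46 and 0.47, where all genes had -0.19 and -0.18. In the Ces1a region 22 and 9 members passed (28.6% and 11.7%, against 12.5% and 13.9% of all genes), and in the Bpifb9b region 16 and 15 in libraries 1 and 2 (20.8% and 19.5%, against 12.9% and 15.5%). In the Trbc2 region 77 of 77 members were below the rest in both libraries (57.5% and 57.1% of all genes). Those past 1.5-fold lower numbered 19 and 11, or 24.7% and 14.3%, against 23.9% and 22.8% of all genes, a share close to or below the background. The medians there were -0.46 and -0.41 for members and -0.10 in both libraries for all genes. In the Cacna1h region 7 and 9 members passed downwards (9.09% and 11.7%, against 15.3% of all genes in each library), in the Crabp1 region 4 and 6 in libraries 3 and 4 (5.19% and 7.79%, against 12.4% and 13.3%) and in the Klhl30 region 7 and 3 in libraries 1 and 2 (9.09% and 3.90%, against 11.2% and 12.6%). These shares lay below the background. Over the 26 pairs of a region and a library, 47 of 77 members (61.0%) passed 1.5-fold in either direction at least once, against 91.2% of all genes and 72.8% of the 563 non-members with at least 10000 UMIs.

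The libraries could be set side by side in 1 region only. Regions drawn again with every gene centred within its library, a setting chosen after it was seen that regions divide by library, held 1 with at least 30 spots in all 4 libraries, led by Osr1. It held 32, 31, 190 and 134 spots in libraries 1 to 4, so that libraries 1 and 2 were close to the minimum. Its member share was 6.62%, 6.75%, 6.97% and 6.79% in libraries 1 to 4, a ratio of 1.05, where the whole libraries had 1.19. Whether its cell makeup was alike in all 4 libraries was not tested.

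Members differed in how far they ranged over regions. The distance between a member's highest and lowest log2 ratio to the rest had a median of 1.13 and ran between 0.56 for Rpl29 and 2.32 for Rps27l. Rps27l stood at 241 CPM in the Mmp12 region of both libraries 3 and 4, log2 ratios of 1.204 and 1.22, and at 64.7 and 67.6 CPM in the Trbc2 region, log2 ratios of -1.09 and -0.98. In libraries 1 and 2, Rps29 stood at 3562 and 2884 CPM in the Bpifb9b region and at 832 and 860.5 CPM in the Cacna1h region, log2 ratios of 1.16 and 0.93 in the first and -1.15 and -0.998 in the second. Rps27 had log2 ratios of 1.08 and 0.98 in the Bpifb9b region and of -1.12 and -1.14 in the Cacna1h region. These 3 were above the rest in the Bpifb9b region and below it in the Cacna1h region.

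Rplp0 had its highest levels in the Ces1a region, 812 and 652 CPM in libraries 3 and 4, and in the Mmp12 region, 705 and 693 CPM, and its lowest log2 ratios, -0.93 and -0.92, in the Trbc2 region, at 241 and 231 CPM. Rpl39, which lines the exit tunnel of the growing protein, had log2 ratios of 0.82 and 0.67 in the Bpifb9b region and of -1.11 and -1.08 in the Cacna1h region. Rpl37a, a zinc-binding protein of the large subunit, had 0.89 and 0.68 in the Bpifb9b region and -0.87 in both libraries of the Cacna1h region. Rpl10, widest between libraries, had log2 ratios of 0.77 and 0.78 in the Mmp12 region and of -0.69 and -0.58 in the Crabp1 region. Rpl21 again stood apart, with log2 ratios of 0.39 and 0.43 in the Cacna1h region, where most members were below 0. Rpl22 had 0.67 and 0.77 in the Mmp12 region, and its paralog Rpl22l1 -0.04 and 0.11.

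Several of the widest members encode very short proteins, and the members were therefore split by protein length. Lengths came from the principal coding sequence of the GENCODE M21 annotation, and 10 of 77 members encode at most 100 residues: Rpl41 with 25, Rpl39 with 51, Rps29 with 56, Rps28 with 69, Rpl38 with 70, Rps21 with 83, Rps27 and Rps27l with 84, Rpl37a with 92 and Rpl37 with 97. The split was made after these values were seen. In the Cacna1h region the 10 short members had median log2 ratios of -0.59 and -0.65 in libraries 1 and 2, and the 67 longer members of -0.20 and -0.14. In the Crabp1 region, also low in mitochondrial transcripts at 2.86% and 2.45% of UMIs in libraries 3 and 4, the medians were -0.53 and -0.59 for short and -0.11 and -0.16 for longer members. In the Bpifb9b region they were 0.78 and 0.69 for short and 0.37 and 0.35 for longer members. Rpl37 did not go with the other short members in the Cacna1h region, with log2 ratios of 0.09 and 0.05.

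Across the 77 members, rho between residues and the log2 ratio was 0.59 and 0.56 in the Cacna1h region, 0.53 and 0.55 in the Crabp1 region and -0.53 and -0.56 in the Bpifb9b region. In the Mmp12 region, whose member share was higher than that of the Bpifb9b region, it was -0.22 and -0.23. Over 558 non-members with at least 10000 UMIs and a length, rho had the same signs in these regions. It was 0.18 in both libraries of the Cacna1h region and 0.25 and 0.26 in the Crabp1 region. It was -0.25 and -0.27 in the Bpifb9b region and -0.23 in both libraries of the Mmp12 region. The signs and sizes were not alike in every region. In the Trbc2 region, whose member share lay furthest below the rest, rho for members was -0.02 and -0.03 in libraries 3 and 4. There the short members had median log2 ratios of -0.48 and -0.49, and the longer members of -0.46 and -0.40. In the Klhl30 region, also low in members, rho for members was 0.40 and 0.43 in libraries 1 and 2. In library 1 the Cbln4 region had -0.40 for members and 0.04 for non-members, and the Apold1 region 0.03 and -0.22. Genes are not independent replicates, and shorter members also had more UMIs, with a rho of -0.47 between residues and UMIs. Over thinned spots, the short members had rho of 0.67, 0.69, 0.56 and 0.66 with the mitochondrial sum in libraries 1 to 4, and the longer members 0.51, 0.45, 0.27 and 0.44. The 69 non-members of at most 100 residues and at least 10000 UMIs had lower rho with it, 0.13, 0.23, 0.21 and 0.26. In whole libraries the short members held 21.9%, 21.8%, 21.9% and 21.9% of the member UMIs.

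**Figure D5:**
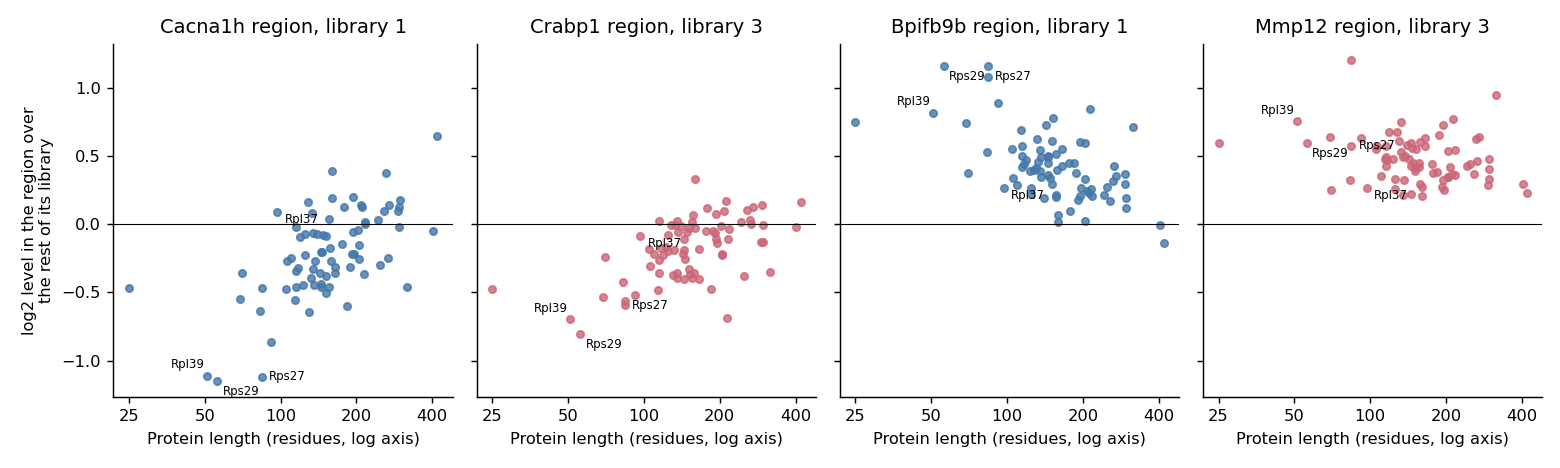
Each point is 1 of the 77 members, plotted by the length of its protein (residues, log axis) and its log2 ratio of a region to the remaining spots, for 4 pairs of a region and a library. Short members, among them Rps29, Rps27 and Rpl39, lie lowest in the Cacna1h and Crabp1 regions and among the highest in the Bpifb9b region, while the Mmp12 region shows a weaker slope, with rho of -0.22. The Trbc2 region, not plotted, had rho of -0.02 in library 3.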

How the data were processed

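The deposited matrix pools 4 libraries and gives UMI counts, 1 whole number for each gene in each spot. Per the file headers, the authors used Space Ranger 1.3.1. The submitters' processing notes name the build GRCm39. The sources used here do not give the annotation, read filters, the handling of reads that match several copies of a gene, or any depth scaling. Capture areas of 1 mouse are technical repeats, and no spatial positions were used.

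The planned comparison of mutant with control, an untested CPM ratio, was not run because no label names the library numbers. Spots with at least 500 UMIs were kept (4616 of 4713). CPM is UMIs per 1000000 UMIs of the library, or of the region's spots or the remaining spots where a region or the rest is named. Intervals at 95% are exact Poisson for levels, exact conditional binomial for ratios and Clopper-Pearson for shares, and the floor is 3 UMIs. A call is a ratio over 1.5. Thinning to 2000 UMIs was without replacement. Clusters used 2000 variable genes, 30 components, 15 neighbours and the Leiden algorithm at resolution 0.8. Log2 ratios of regions use a prior count of 0.5, and regions were named by the leading gene with at least 200 UMIs.

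Genes named are the 6 members with the most UMIs, the 6 widest and 6 narrowest between libraries, the 6 widest over regions, paralogs and the stalk genes with Rpsa, and the 2 most counted of each list. Members and lists were chosen with earlier results of these data known. The threshold of 1.2, the limit of 100 residues and the minimum of 10000 UMIs were set after seeing the data. The calculations were tested on simulated data. Python 3.11.15, numpy 2.4.6, scipy 1.17.1, pandas 2.3.3, leidenalg 0.10.2, igraph 0.11.9 and matplotlib 3.10.9 were used. Alternatives covered spot and gene minimums, folds, denominators, size factors, thinning depth, clustering and leaving out each library.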

Additional observations from a re-analysis of the deposited data

How the results depend on the processing

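Of 81 alternative values, 58 stayed close to those reported. The library ratio of the member share was 1.16 over nuclear UMIs, 1.185 with other ribosome genes added, and 1.16 to 1.19 with each library left out in turn. Members past the fold numbered 5 with no minimum (43.3% of all genes), Rpl3l and Rpl39l then counting on very few UMIs, 39 at a fold of 1.2 (58.7%), 0 at 2 (7.85%) and 1 to 3 with a library left out (15.2% to 16.2%). The other translation genes past it were 45 of 145 at a fold of 1.2, against the same 58.7% of all genes. Variation between spots beyond counting was 21.0% in library 2 at 1000 UMIs per spot and 18.9% in library 1 at 4000. Spearman's correlation between large and small subunit UMIs changed with depth: 0.50, 0.51, 0.62 and 0.67 in libraries 1 to 4 at 1000 UMIs, 0.74, 0.74, 0.85 and 0.87 at 4000, and 0.76, 0.73, 0.77 and 0.82 over nuclear UMIs. The range of the share over regions was 0.89 to 0.94 in log2 units under the other settings and 0.85 to 0.93 without each library, and members past 1.5-fold in any region numbered 41 to 54 (90.0% to 98.0% of all genes). The cause of these shifts was not tested. No paired analysis was possible because the libraries match no label and carry no replicate numbers. At this depth a member with 1 UMI in a library, such as Rpl3l in library 3, gives no usable ratio.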
